A study of Mus musculus with 2 samples.

Results

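The 10 genes described here encode the 6 subunits of the Mcm2 to Mcm7 replicative helicase (Mcm2, Mcm3, Mcm4, Mcm5, Mcm6 and Mcm7), the sliding clamp Pcna, both subunits of ribonucleotide reductase (Rrm1 and Rrm2) and thymidylate synthase (Tyms). They were taken by name from count tables of 25507 gene symbols, and all 10 were present in both tables. The cells came from the pancreas of wild-type mouse embryos (stage E14.5), were sorted by flow cytometry into low and high Ngn3eGFP signal, and were sequenced as single cells in 2 libraries. Ngn3eGFP is a fluorescent reporter for Neurog3, the transcription factor that starts endocrine differentiation. Both libraries carry the same labels for genotype, stage and sort. The labels do not tie single cells to the low or the high gate, and they do not say that the libraries came from separate animals, so p-values measure only the spread between these samples, which may be technical.

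The Mcm2 to Mcm7 proteins form a ring that is loaded onto origins of replication before S phase and unwinds DNA at the fork. The clamp Pcna holds polymerases on the template, while ribonucleotide reductase and thymidylate synthase supply the deoxynucleotides that are built in. Transcription of such genes is switched on by E2F factors as cells pass from G1 into S phase. In the embryonic pancreas, progenitors of the epithelium divide, and cells that pass through a phase of Neurog3 expression leave the cell cycle and become hormone-producing cells.

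The 2 libraries held 535 and 1100 cell barcodes with 1910588 and 3425983 unique molecular identifiers (UMIs, each standing for 1 captured RNA molecule), and 3 barcodes occurred in both. After filtering, 515 and 1070 cells were kept, and they held 1517 and 3434 UMIs of the 10 genes. Cells were grouped by raw UMIs of marker genes: Spp1 (at least 5, a marker of the ductal trunk epithelium), Neurog3 (at least 5), Chgb (at least 5, a secretory granule protein of endocrine cells), Gcg (at least 10, glucagon), Ins1 and Ins2 together (at least 20, insulin), Cpa1 (at least 5, an enzyme of acinar and tip cells) and Csf1r (at least 2, a receptor of macrophages). Cells with the marker of a later stage were counted at that stage, so the Spp1 group holds cells under the Neurog3 and Chgb minimums. Cell numbers in libraries 1 and 2 were 97 and 213 for Spp1, 86 and 135 for Neurog3, 84 and 130 for Chgb, 27 and 44 for Gcg, 39 and 99 for Ins1 and Ins2, 9 and 84 for Cpa1, and 7 and 35 for Csf1r. A further 6 and 7 cells reached both the Neurog3 and the Chgb minimum, 159 and 318 cells reached no minimum, and 1 and 5 cells carried markers of several groups. Markers that did not define the groups were also read. The 5 trunk markers other than Spp1 summed to 1821 and 2408 CPM (UMIs of a gene per 1000000 UMIs) in the Spp1 group against 362 and 408 CPM in the Chgb group. The 6 acinar markers other than Cpa1 summed to 6065 and 9680 CPM in the Cpa1 group against 129 and 141 CPM in the Spp1 group.

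Sequence upstream of 3 helicase genes is shown because these genes fell together from the Spp1 to the Chgb group (below) and differ in the letters they carry. RefSeq windows on GRCm38.p6 were matched for 9 of the 10 genes, all but Mcm4, and the 250 bases before the annotated start were searched on both strands. The E2F-type letters searched were TTTGGCGC, TTTCCCGC, TTTGCCGC and TTTCGCGC, and the other motif was CCAAT. Mcm3 (chr1:20820313-20820562, minus strand), Mcm5 (chr8:75109259-75109508, plus strand) and Mcm6 (chr1:128359706-128359955, minus strand) are given 5′ to 3′, with every match in capitals (ATTGG is CCAAT on the other strand).
Mcm3: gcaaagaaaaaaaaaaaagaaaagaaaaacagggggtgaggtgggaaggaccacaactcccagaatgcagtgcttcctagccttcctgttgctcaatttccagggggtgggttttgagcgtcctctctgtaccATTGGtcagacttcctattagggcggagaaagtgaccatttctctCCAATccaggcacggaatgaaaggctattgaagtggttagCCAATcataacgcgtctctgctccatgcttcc
Mcm5: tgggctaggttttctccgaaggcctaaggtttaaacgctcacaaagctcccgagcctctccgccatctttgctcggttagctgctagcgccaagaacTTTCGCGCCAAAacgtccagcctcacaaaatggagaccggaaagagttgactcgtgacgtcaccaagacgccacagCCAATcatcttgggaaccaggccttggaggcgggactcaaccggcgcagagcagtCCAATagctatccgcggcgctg
Mcm6: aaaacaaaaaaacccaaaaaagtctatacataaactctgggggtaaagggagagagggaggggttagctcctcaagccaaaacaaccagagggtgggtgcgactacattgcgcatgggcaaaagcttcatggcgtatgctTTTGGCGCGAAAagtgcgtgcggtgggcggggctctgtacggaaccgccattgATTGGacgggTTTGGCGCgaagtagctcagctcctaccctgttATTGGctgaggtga
Mcm5 carried TTTCGCGC starting 153 bases before the start, overlapping TTTGGCGC on the other strand. Mcm6 carried TTTGGCGC at 110 and at 47 bases, the first overlapping TTTCGCGC on the other strand. The 9 genes have 10 windows. These E2F-type letters were found in 3 of the 10 windows, those of Mcm5, Mcm6 and 1 of Mcm7, against 1.86% of the 32851 RefSeq windows of the same length and 2 of 40 windows of the mitosis genes described below. CCAAT was found in 9 of the 10 windows, all but that of Tyms, against 33.8% of all windows. It was also in 33 of the 40 windows of the mitosis genes. These are matches of letters, and binding was not measured. By GENCODE, the Mcm7 window with the E2F-type letters lay wholly in exons of Ap4m1 and Mcm7. Of the Pcna window, 208 bases lay in exons of AV099323 and Pcna, and of the Rrm2 window 13 bases in its own exons.

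Summed, the 10 genes were high in the Spp1, Cpa1 and Csf1r groups and low in the Chgb, Gcg and insulin groups. They were intermediate in the Neurog3 group. Their summed level in libraries 1 and 2 was 1833 and 1864 CPM in the Cpa1 group, 1585 and 1288 CPM in the Csf1r group, and 1311 and 1680 CPM in the Spp1 group. In the Neurog3 group it was 832 and 829 CPM. The Chgb group held 316 and 370 CPM, the Gcg group 393 and 333 CPM, and the Ins1 and Ins2 group 264 and 326 CPM. Both libraries gave the same order from Spp1 over Neurog3 to Chgb, with no overlap between these 3 groups. The Chgb, Gcg and insulin groups overlapped one another, as did the Spp1 and Csf1r groups, so their order is not given. The Spp1 group supplied 32.4% of all UMIs of the 10 genes from 19.6% of the cells, and the Cpa1 group 17.3% from 5.87% of the cells. The Chgb group supplied 5.01% from 13.5% of the cells. Single genes did not all follow the order of the sum. In library 2, for example, Pcna was at 111 CPM in the Gcg group and 64.0 CPM in the Neurog3 group. A lower summed level can come from fewer cells that express the genes or from less RNA in each of them, and these cannot be told apart.

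**Figure D1:**
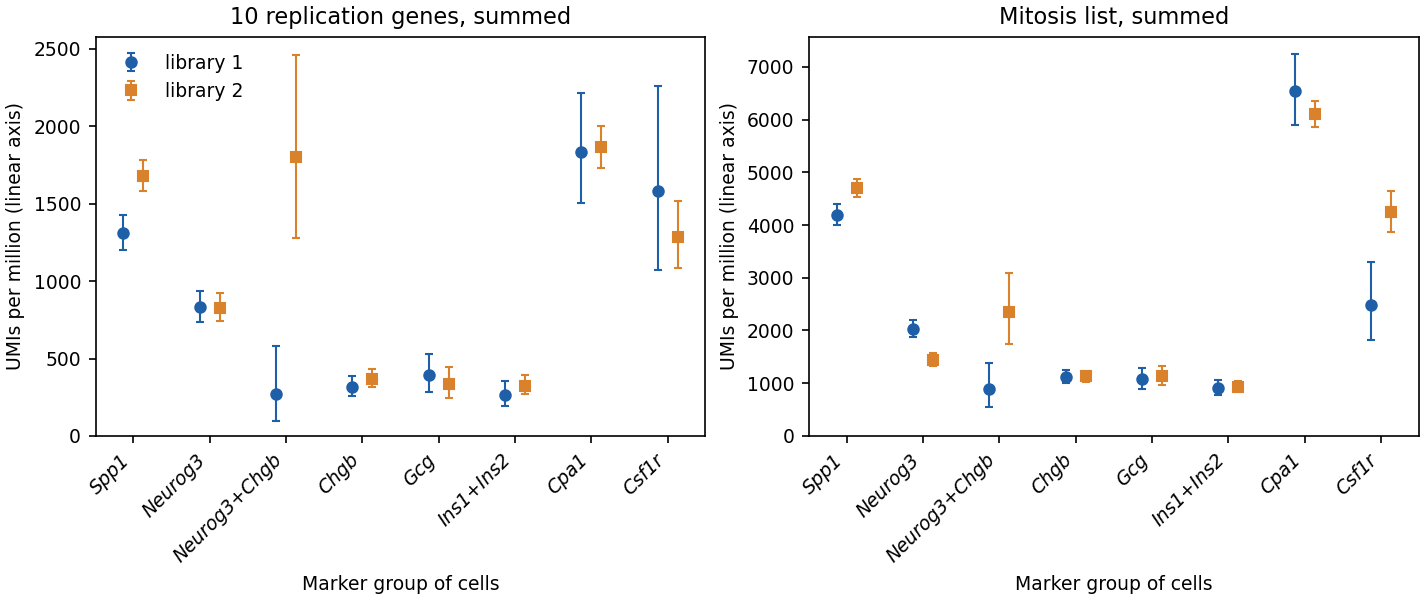
Summed level (CPM) of the 10 replication genes (left) and of 39 mitosis genes (right) by marker group, with 1 point per library and exact Poisson intervals (95%) that cover counting error only. On the left the Neurog3 group (832 and 829 CPM) lies below the Spp1, Cpa1 and Csf1r groups (at least 1288 CPM) and above the Chgb, Gcg and insulin groups (at most 393 CPM).

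The mitosis list held 39 measured genes, mostly of late G2 and M phase, such as Mki67, Top2a and Cdk1. It was also higher in the Spp1 and Cpa1 groups than in the Neurog3 and Chgb groups. Its summed level was 4192 and 4702 CPM in the Spp1 group, 2031 and 1447 CPM in the Neurog3 group, and 1124 and 1131 CPM in the Chgb group. In the Cpa1 group it was 6545 and 6100 CPM. Its part in the levels of the 10 genes was not tested beyond the values in cells without mitosis UMIs given below. Median depth per cell was 3870 and 2807 UMIs in the Spp1 group, 3242 and 2879 UMIs in the Neurog3 group, and 3404 and 3109 UMIs in the Chgb group.

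Between the Spp1 and the Neurog3 group, all 10 genes had a lower fitted level in the Neurog3 group, and 3 of them passed the test: Pcna, Mcm5 and Mcm6. Counts were summed per library and group and tested with edgeR's quasi-likelihood test, with library as a block and Benjamini-Hochberg adjustment over 12201 genes at 0.05. Of all genes tested, 3.29% were called lower. The median log2 fold change of the 10 genes was -0.75, against -0.01 over all genes tested, and 6 of the 10 had an unadjusted p under 0.05. DESeq2 called 1 of the 10, Pcna.

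Pcna, the clamp (chr2:132249162-132253314, GENCODE M21 on GRCm38, like the positions that follow), had the lowest log2 fold change at this step. Its level was 222 and 326 CPM in the Spp1 group and 94.9 and 64.0 CPM in the Neurog3 group of libraries 1 and 2. Both Spp1 values lay well above both Neurog3 values. Pcna fell by 1.76 ± 0.28 (SE) on the log2 scale (edgeR adjusted p = 6.67e-08), with -1.23 in library 1 alone and -2.37 in library 2 alone. It was called under all 10 tested alternatives, with adjusted p from 6.72e-08 to 0.0279.

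Of the helicase genes, Mcm5 (chr8:75109569-75128439) went from 134 and 110 CPM to 31.6 and 61.5 CPM, and the groups did not overlap. Its log2 fold change was -1.29 ± 0.36 (edgeR adjusted p = 0.00804), with -2.06 in library 1 alone and -0.86 in library 2 alone. Mcm6 (chr1:128331590-128359664) went from 202 and 283 CPM to 146 and 133 CPM, a log2 fold change of -0.78 ± 0.26 (edgeR adjusted p = 0.0406). The Mcm6 call was close to the threshold and was kept in 3 of 10 alternatives, and the Mcm5 call in 7 of 10. In single libraries Mcm6 gave -0.48 in library 1 and -1.12 in library 2.

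The other 4 helicase genes did not pass at this step. Mcm2 (chr6:88883474-88898780), whose protein forms the gate of the ring together with Mcm5, was at 214 and 213 CPM in the Spp1 group and 155 and 162 CPM in the Neurog3 group (log2 fold change -0.39 ± 0.25, edgeR adjusted p = 0.471). Mcm4 was at 129 and 147 CPM against 88.6 and 103 CPM (-0.48 ± 0.31, edgeR adjusted p = 0.467). Mcm7 was at 108 and 162 CPM against 82.2 and 98.5 CPM (-0.55 ± 0.30, edgeR adjusted p = 0.353). For each of these 3 genes the Neurog3 values lay below the Spp1 values in both libraries. Mcm3 did not keep a direction: it was at 68.1 and 110 CPM in the Spp1 group and at 98.1 and 46.8 CPM in the Neurog3 group, higher in library 1 and lower in library 2 (-0.36 ± 0.37, edgeR adjusted p = 0.72).

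The nucleotide supply genes were each lower in both libraries, and none passed. Rrm1 (chr7:102441695-102469771), the large subunit of ribonucleotide reductase, was at 114 and 152 CPM in the Spp1 group and 60.1 and 98.5 CPM in the Neurog3 group (edgeR adjusted p = 0.196). Rrm2 (chr12:24708241-24714146), the small subunit, was at 50.4 and 102 CPM against 31.6 and 34.5 CPM (-1.17 ± 0.43, edgeR adjusted p = 0.0726). Tyms (chr5:30058202-30073617), which makes thymidylate, was at 70.6 and 74.2 CPM against 44.3 and 27.1 CPM (-1.02 ± 0.42, edgeR adjusted p = 0.135). The size of each difference, from -0.72 for Rrm1 to -1.17 for Rrm2, was similar to or above that of the called Mcm6, with larger errors.

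**Figure D2:**
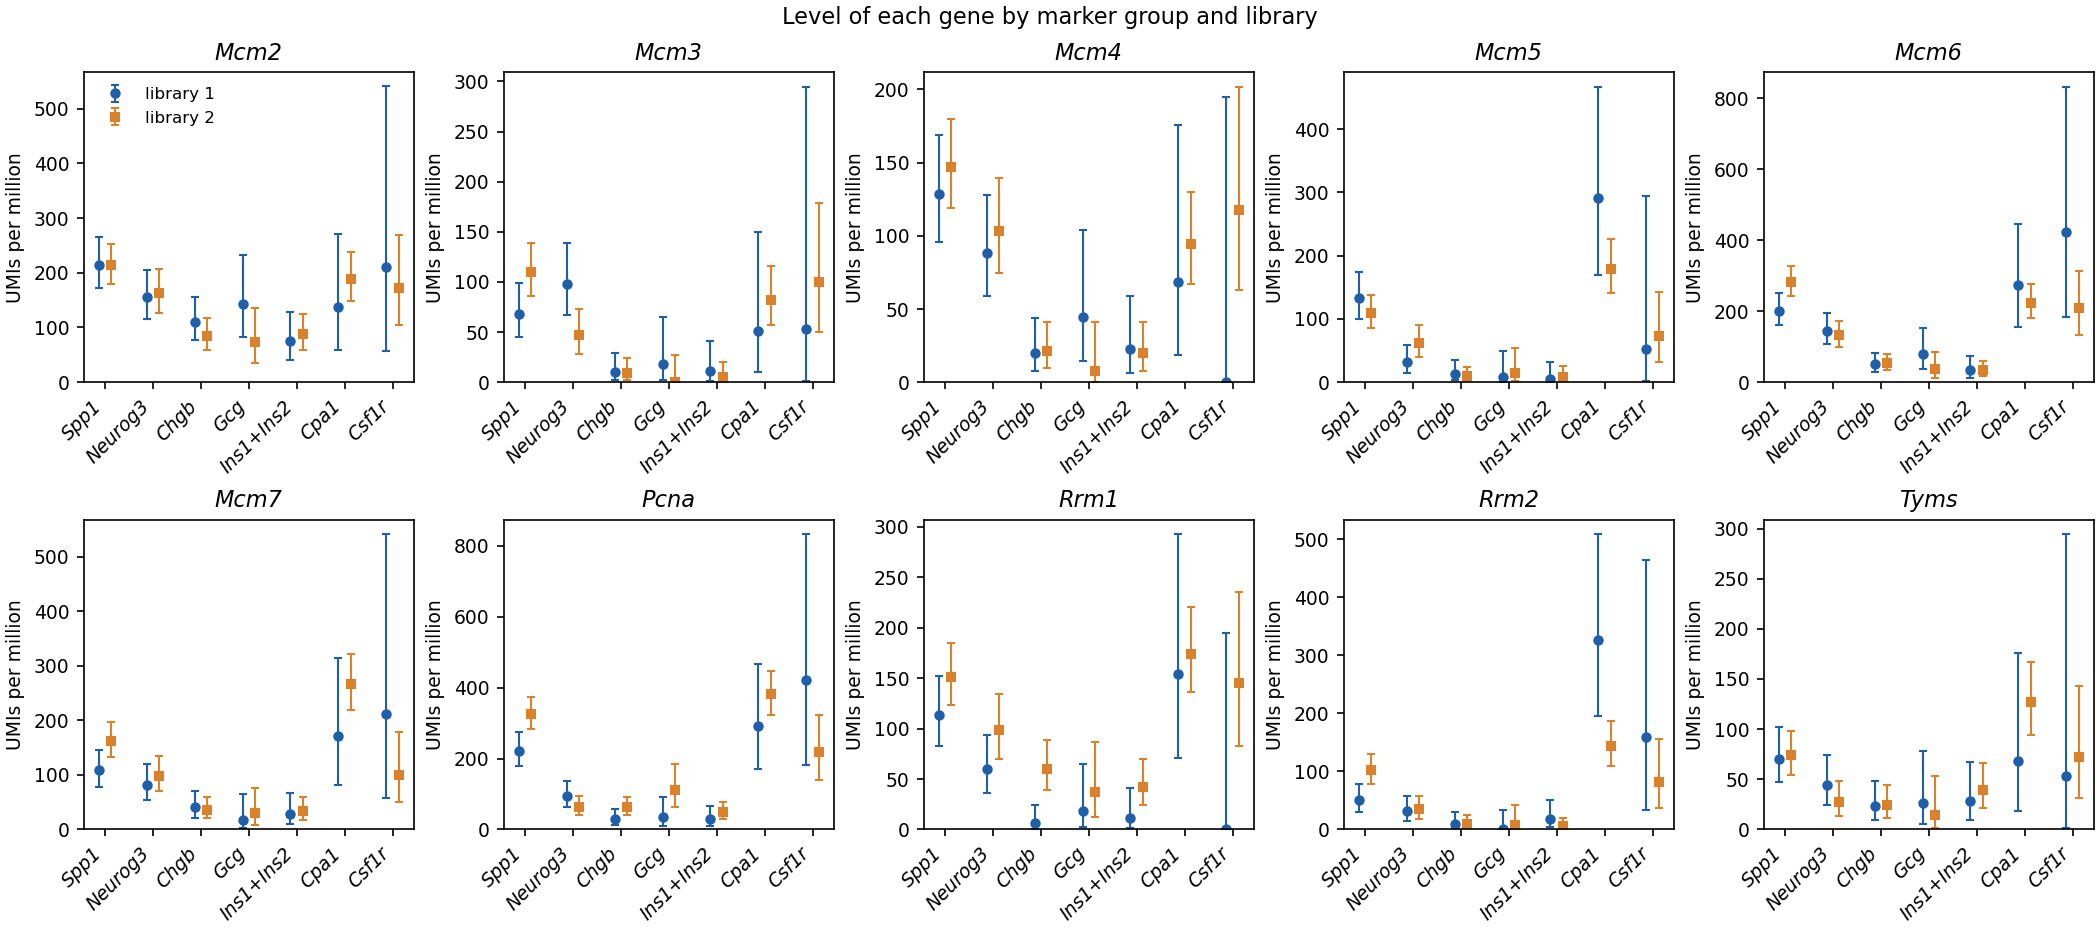
Level of each of the 10 genes (CPM, 1 panel per gene with its own linear axis) by marker group, with 1 point per library and exact Poisson intervals (95%) covering counting error only. Mcm3 and Mcm4 drop most clearly between the Neurog3 and Chgb groups. Pcna drops from the Spp1 to the Neurog3 group in both libraries. In library 1 it drops again to the Chgb group (94.9 to 30.2 CPM).

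At the next step, from the Neurog3 to the Chgb group, 7 of the 10 genes fell: Mcm3, Mcm4, Mcm5, Mcm6, Mcm7, Rrm1 and Rrm2. In this comparison 5.57% of all genes tested were called lower by edgeR. All 10 fitted log2 fold changes were below 0, with a median of -1.42 against 0.01 over all genes. The 3 genes that did not pass were Mcm2, Pcna and Tyms. DESeq2 called 3 of the 10, Mcm3, Mcm4 and Mcm6. The Chgb group held the delta cell markers Sst and Hhex at 258 CPM in library 1 and 2219 CPM in library 2, and the part of this difference between libraries in the values below was not tested.

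Mcm3 (chr1:20802968-20820312) had the lowest log2 fold change. It was at 98.1 and 46.8 CPM in the Neurog3 group and at 10.1 and 9.60 CPM in the Chgb group, where it rested on 3 and 4 UMIs. It fell by 2.86 ± 0.56 on the log2 scale (edgeR adjusted p = 1.7e-05). Mcm4 (chr16:15623897-15637400) went from 88.6 and 103 CPM to 20.1 and 21.6 CPM, with a log2 fold change of -2.26 ± 0.44 (edgeR adjusted p = 1.37e-05). Both genes stayed close between libraries in the Chgb group, and both were called under all 10 tested alternatives, Mcm3 with adjusted p up to 0.0168 and Mcm4 up to 0.00731.

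Mcm5 went from 31.6 and 61.5 CPM to 13.4 and 9.60 CPM, or 4 UMIs in each library. Its log2 fold change was -2.13 ± 0.56 (edgeR adjusted p = 0.00336), with -1.28 in library 1 alone and -2.65 in library 2 alone. Mcm6 went from 146 and 133 CPM to 50.3 and 52.8 CPM (-1.50 ± 0.33, edgeR adjusted p = 0.000204). Each of these 2 calls was kept in 9 of 10 alternatives. Mcm5 and Mcm6 were thus called at both steps, and for Mcm6 the first of these calls was the less stable.

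Mcm7 went from 82.2 and 98.5 CPM to 40.3 and 36.0 CPM (-1.34 ± 0.39, edgeR adjusted p = 0.00909, kept in 6 of 10 alternatives). Its exons (chr5:138164583-138172422), pooled over all annotated transcripts, overlap those of Ap4m1 and Cops6 on the other strand. They also overlap the microRNA genes Mir25 and Mir93 on the same strand. Whether counting used strand is not known from the sources, so the level of Mcm7 is uncertain. Mcm2 had the smallest difference among the helicase genes, at 155 and 162 CPM against 111 and 84.0 CPM, which narrowly missed the threshold (-0.81 ± 0.29, edgeR adjusted p = 0.0562).

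The nucleotide supply genes differed between libraries at this step. Rrm1 went from 60.1 CPM to 6.71 CPM in library 1 and from 98.5 CPM to 60.0 CPM in library 2. Its call (log2 fold change -1.28 ± 0.40, edgeR adjusted p = 0.0228) therefore joins a single-library change of -3.09 with one of -0.78, and it was kept in 5 of 10 alternatives. Rrm2 went from 31.6 and 34.5 CPM to 10.1 and 9.60 CPM (-1.82 ± 0.64, edgeR adjusted p = 0.0487), on 3 and 4 UMIs in the Chgb group, and was kept in 3 of 9 alternatives. Tyms was at 44.3 and 27.1 CPM against 23.5 and 24.0 CPM (-0.62 ± 0.52, edgeR adjusted p = 0.594). For Tyms the values lay lower in the Chgb group in both libraries, but by little in library 2.

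Pcna was at 94.9 and 64.0 CPM in the Neurog3 group and at 30.2 and 62.4 CPM in the Chgb group. The 2 libraries differed here, with a lower level in library 1 and nearly equal levels in library 2 (-0.82 ± 0.36, edgeR adjusted p = 0.171). Pcna and Tyms have processed copies by name in the annotation (Pcna-ps1, Pcna-ps2 and Tyms-ps), to which reads could have been split.

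**Figure D3:**
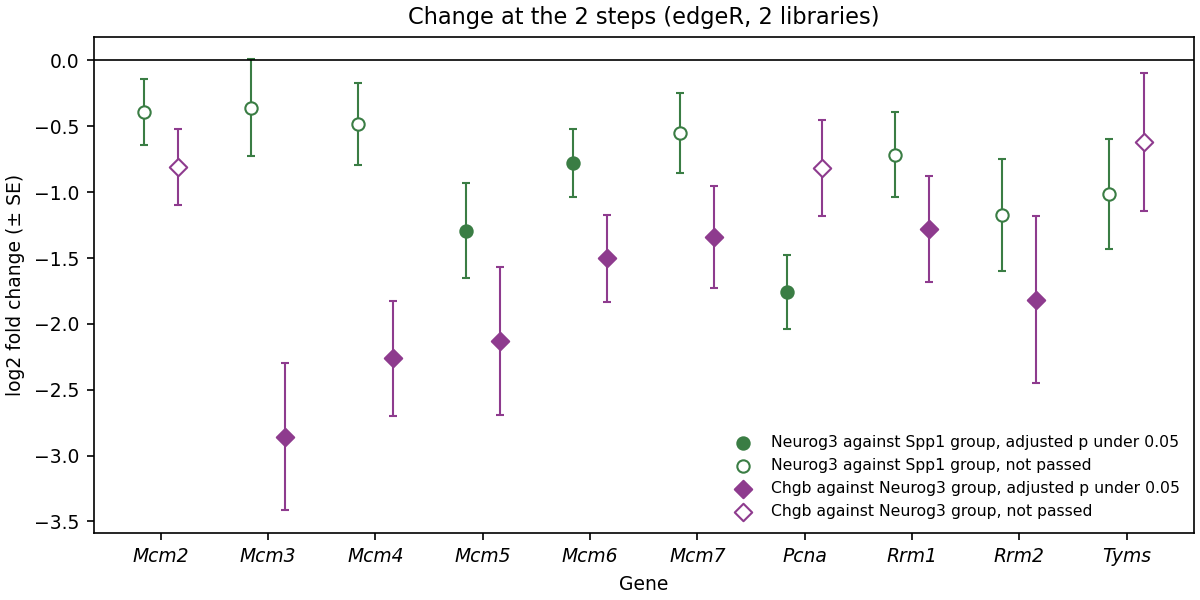
Log2 fold change with its SE (edgeR, 2 libraries) of each gene from the Spp1 to the Neurog3 group (circles) and from the Neurog3 to the Chgb group (diamonds), filled where the adjusted p was under 0.05. Pcna has its larger fitted change at the first step (-1.76 against -0.82), a difference within the error. Mcm3 has its larger fitted change at the second step (-2.86 against -0.36), a difference called here but kept in 1 of 9 alternatives. Its change at the first step had opposite signs in the 2 libraries.

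The change at the second step minus the change at the first was tested in the same fit, a comparison added after the data were seen. It passed for 1 of the 10 genes, Mcm3, at -2.50 ± 0.81 (edgeR adjusted p = 0.0389), where 5.76% of all genes tested were called in either direction. This call was kept in 1 of 9 alternatives. For Mcm4 the difference was -1.78 ± 0.65 (edgeR adjusted p = 0.0884). For Pcna it had the opposite sign, 0.94 ± 0.58 (edgeR adjusted p = 0.484), so the unequal steps of Pcna were within the error. Since the Neurog3 group enters both steps, an error in its level moves the steps in opposite directions.

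From the Spp1 to the Chgb group, a comparison that spans both steps and was also added after the data were seen, all 10 genes fell. Here 8.46% of all genes tested were called lower by edgeR. The log2 fold changes ran from -1.20 ± 0.27 for Mcm2 (edgeR adjusted p = 0.000229) to -3.43 ± 0.48 for Mcm5 (edgeR adjusted p = 1.27e-10), with a median of -2.43. DESeq2 called 9 of the 10, all but Tyms. Rrm1 gave -4.01 in library 1 alone and -1.43 in library 2 alone, while the values of the other 9 genes had the same sign and lay between -1.06 and -3.51. Mcm2 made up 13.9% of the UMIs of the 10 genes in the Spp1 group, 19.2% in the Neurog3 group and 27.4% in the Chgb group. Mcm3 made up 6.10% in the Spp1 group and 2.82% in the Chgb group.

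Cells past the Chgb stage did not differ further in a way the test could call. In the Gcg group against the Chgb group, 0 of the 10 genes passed by edgeR, 0 had an unadjusted p under 0.05 and DESeq2 called 0, where edgeR called 1.25% of all genes tested in either direction. The insulin group against the Chgb group likewise gave 0 by edgeR, 0 unadjusted and 0 by DESeq2, against 2.66% of all genes tested. Errors were large, since the sums held few UMIs: Mcm3 had 2 and 0 UMIs in the Gcg group and 2 and 2 UMIs in the insulin group. Its log2 fold change against the Chgb group was -0.25 ± 1.16 for Gcg and -0.23 ± 0.92 for insulin. Mcm2 was measured more closely, at 143 and 74.1 CPM in the Gcg group and 74.6 and 87.8 CPM in the insulin group (-0.09 ± 0.34 for insulin against Chgb).

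The acinar Cpa1 group was compared with the Spp1 group through library 2 alone, because library 1 held 9 Cpa1 cells, under the minimum of 10 for a sum. The lone sum is assumed to vary like those of the other groups. Mcm7 was higher, at 267 CPM in the Cpa1 group of library 2 against 108 and 162 CPM in the Spp1 group (log2 fold change 1.05 ± 0.33, edgeR adjusted p = 0.0236), and 5.52% of all genes tested were called higher. The call was kept in 5 of 9 alternatives, and DESeq2 called 0 of the 10 genes. In the 9 Cpa1 cells of library 1, which were not tested, Mcm7 stood at 171 CPM. Tyms was at 127 CPM in the Cpa1 group of library 2 against 70.6 and 74.2 CPM in the Spp1 group (1.09 ± 0.43, edgeR adjusted p = 0.105).

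The step between Spp1 and Neurog3 was divided further by the second marker. Spp1 cells with 1 to 4 Neurog3 UMIs (29 and 72 cells) held 1591 and 1567 CPM of the 10 genes, against 1203 and 1743 CPM in Spp1 cells with 0 Neurog3 UMIs (68 and 141 cells). Neurog3 cells that still reached the Spp1 minimum (18 and 28 cells) held 1130 and 983 CPM, and those that did not (68 and 107 cells) 709 and 775 CPM. The summed level thus lay lower in both Neurog3 classes than in both Spp1 classes in each library. Between the Spp1 classes the libraries differed: cells with 1 to 4 Neurog3 UMIs lay higher in library 1 and lower in library 2. In the Spp1 cells with against those without Neurog3 UMIs, 0 of the 10 genes passed by edgeR (0 unadjusted, 0 by DESeq2), where 0.0549% of 10922 genes were called.

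Between Neurog3 cells with Spp1 and Spp1 cells with 1 to 4 Neurog3 UMIs, 0 of the 10 genes passed by edgeR, 2 had an unadjusted p under 0.05 and DESeq2 called 0, where 0.238% of all genes were called in either direction. Those 2 were Pcna, at 86.9 and 104 CPM against 298 and 286 CPM (-1.58 ± 0.42, edgeR adjusted p = 0.0669), and Mcm6, at 196 and 114 CPM against 326 and 303 CPM (edgeR adjusted p = 0.339). For Pcna the classes were far apart in both libraries. Rrm2 was not lower in the cells with both markers: it was at 97.8 and 94.6 CPM against 45.2 and 51.2 CPM (1.03 ± 0.59, edgeR adjusted p = 0.662). Few of the cells with both markers held it (below).

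Between Neurog3 cells without and with Spp1, 2 of the 10 genes fell, Rrm2 and Mcm7, where 1.03% of all genes tested were called lower by edgeR. Rrm2 went from 97.8 and 94.6 CPM to 4.46 and 13.3 CPM, or 1 and 4 UMIs (-3.27 ± 0.72, edgeR adjusted p = 0.00244). Mcm7 went from 217 and 132 CPM to 26.8 and 86.5 CPM (-1.54 ± 0.45, edgeR adjusted p = 0.0485). The Rrm2 call was kept in 6 of 7 alternatives and the Mcm7 call in 2 of 9, while DESeq2 called 0 of the 10 genes. With marker minimums on UMIs scaled per cell the Rrm2 call was lost (edgeR adjusted p = 0.679). Median depth was 4463 and 3592 UMIs in the cells with Spp1 and 2931 and 2714 UMIs in those without. The part of depth in this split was not tested. The mitosis list also differed between these classes, at 1669 and 1298 CPM without Spp1 and 2913 and 1872 CPM with it, and its part in these 2 changes was not tested.

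Detection per cell followed the summed levels. Each cell was thinned to 1500 UMIs, leaving out shallower cells, and shares are means over 50 draws. At least 1 UMI of the 10 genes was found in 71.2% and 73.9% of Spp1 cells, 54.9% and 57.8% of Neurog3 cells, and 39.0% and 41.2% of Chgb cells. In the insulin group the share was 33.7% and 37.1%, and in the Cpa1 group 87.1% (of 9 cells) and 86.8%. No group is known to lack these genes, so no share gives the level of free RNA. The Gcg group was at 37.5% and 33.4%, and the 6 cells of library 1 with both Neurog3 and Chgb were at 23.3%, so the order among these low groups is not given. Without thinning, the shares were 85.6% and 86.9% of Spp1 cells and 60.7% and 63.8% of Chgb cells.

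Shares of cells with several of the genes at once differed between the groups by larger ratios. At least 3 of the 10 genes were detected in 17.7% and 28.7% of Spp1 cells (94 and 197 cells deep enough), with exact binomial intervals (95%) of 10.9% to 27.4% and 22.7% to 35.8%. Among Neurog3 cells the share was 6.83% (2.67% to 14.9%) and 10.4% (5.52% to 16.7%). Among Chgb cells it was 0.615% (up to 4.62%) and 0.492% (up to 4.48%). Each interval is that of the mean number of cells rounded to a whole cell. The intervals cover counting error only, since cells are not replicates. The Chgb shares came from fewer than 1 cell on average per draw. Single genes followed: Mcm3 was detected in 8.91% and 12.4% of Spp1 cells and 0.949% and 1.77% of Chgb cells, whereas Mcm2 was detected in 23.8% and 24.7% against 15.0% and 11.3%.

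**Figure D4:**
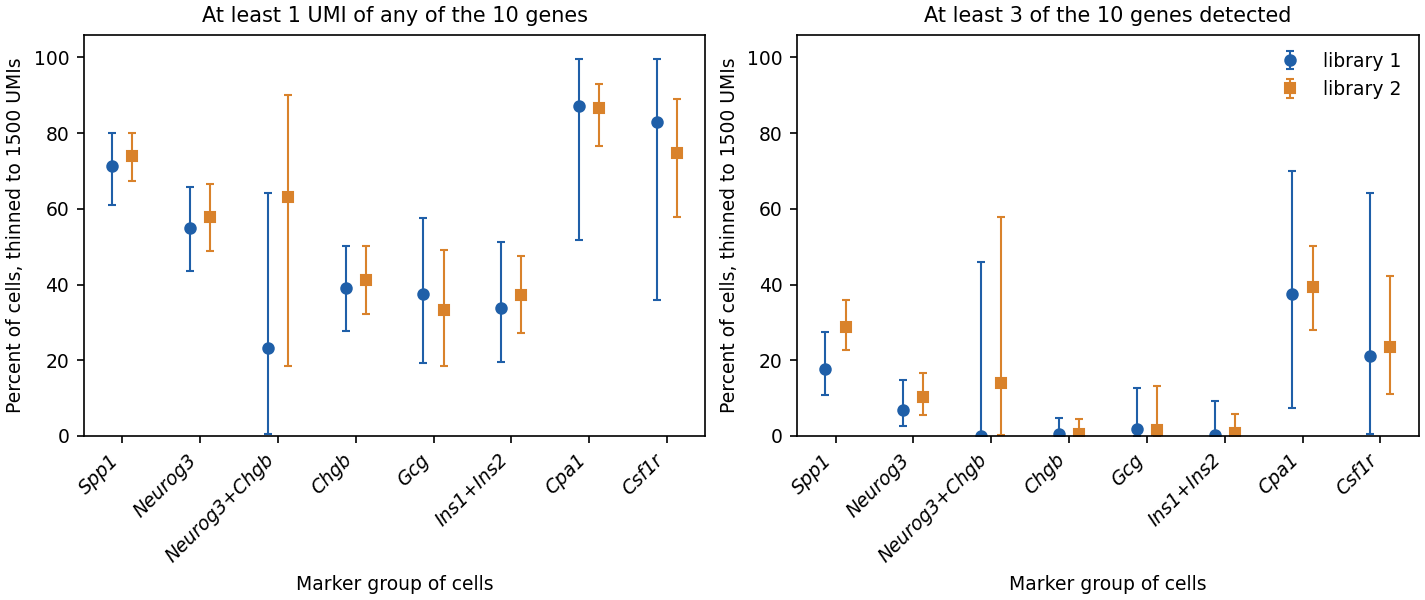
Percent of cells, each thinned to 1500 UMIs, with at least 1 UMI of the 10 genes (left) and with at least 3 of the 10 genes detected (right), by marker group and library. Exact binomial intervals (95%) are those of the mean number of cells rounded to a whole cell, and they cover counting error only. Shares with at least 3 genes are 17.7% and 28.7% in the Spp1 group and below 1% in the Chgb group.

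The 6 and 7 cells with both Neurog3 and Chgb were too few for a sum. Their summed level was 268 CPM in library 1 and 1800 CPM in library 2. In library 2, 1 cell held 10 of the 11 Pcna UMIs, and all 8 Rrm2 UMIs also came from 1 cell. These levels therefore describe single cells and not the class.

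The same comparisons were repeated in cells with 0 UMIs of Mki67, Top2a, Cdk1, Ccnb1 and Birc5, an alternative added after the data were seen, in which 9 of the 10 genes passed the filter on low counts (Rrm2 did not). From Spp1 to Neurog3, edgeR still called 2 genes lower: Pcna at -1.45 (adjusted p = 0.0279) and Mcm6 at -1.17 (adjusted p = 0.0375). From Neurog3 to Chgb it called 3, Mcm3, Mcm4 and Mcm5. From Spp1 to Chgb it called 4, Mcm4, Mcm5, Mcm6 and Pcna. Fewer genes were thus called, in fewer cells. The share of all genes called in these cells is not given here, so these counts are not set against a background. In these cells Mcm6 no longer passed from Neurog3 to Chgb (edgeR adjusted p = 0.277), and the fitted log2 fold change of Pcna at that step was 0.071.

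Among 102 other genes of DNA replication, 98 were tested. From Spp1 to Neurog3, 13 fell and 0 rose by edgeR (24 lower and 2 higher at an unadjusted p under 0.05), where 3.29% of all genes tested were called lower. DESeq2 called 1, and the median log2 fold change was -0.47. From Neurog3 to Chgb, 10 fell and 0 rose by edgeR (20 lower and 1 higher unadjusted, 1 by DESeq2), against 5.57% of all genes called lower, and the median was -0.38. The first set included Gmnn, the inhibitor of origin licensing (-1.68), Gins2 of the helicase's GINS partner (-1.84), Lig1, the ligase that seals Okazaki fragments (-1.38), the clamp loader subunit Rfc1 (-1.52), thymidine kinase Tk1 (-1.78), the maintenance methyltransferase Dnmt1 (-1.34) and its partner Uhrf1 (-2.42), the deubiquitinase Usp1 (-1.17) and the cyclins Ccna2 (-2.14) and Ccne2 (-1.60), with Asf1b and Rbbp7. The second set held the transcription factors E2f1 (-2.49) and E2f3 (-2.14), topoisomerase Top1 (-0.92), the histone chaperone Nasp (-1.16), the fork protection factor Tipin (-1.50) and the chromatin remodeler Hells (-1.72), with Dctpp1, Paics, Rbbp4 and Rnaseh2c. Other genes with the lowest adjusted p of their role at the first step did not pass there. With the log2 fold change and then the edgeR adjusted p in brackets, they were the licensing factors Cdt1 (-1.41, 0.0724) and Cdc6 (-1.24, 0.327), the firing factors Topbp1 (-0.87, 0.0768) and Cdc45 (-1.96, 0.165), and Impdh2 of guanine nucleotide synthesis (-0.83, 0.12). The exonuclease Exo1 (-0.95, 0.357), the kinase Cdk2 (-1.09, 0.34), and, with a value above 0, Timeless (1.14, 0.248) and Top1 (0.57, 0.0775) did not pass either.

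By role, from Spp1 to Neurog3 edgeR called 1 of 11 tested origin licensing genes, 1 of 10 helicase partners and firing factors, and 2 of 26 polymerase, clamp loader and ligation genes lower. It called 2 of 18 nucleotide supply genes, 4 of 13 chromatin copying genes, 1 of 10 fork checkpoint genes and 2 of 10 genes of G1/S control. At this first step 3.29% of all genes tested were called lower, so single calls in lists of this size are not read as results. From Neurog3 to Chgb the counts lower were 0 of 11, 0 of 10, 2 of 26, 2 of 18, 3 of 13, 1 of 10 and 2 of 10 in the same order. At this second step 5.57% of all genes tested were called lower, so 0 calls by edgeR among the origin licensing genes and 0 among the helicase partners (0 and 1 at an unadjusted p under 0.05, 0 and 0 by DESeq2) are near the background in lists of this size. Their median log2 fold changes there were -0.06 and -0.10, and that of the 6 Mcm genes was -1.82, with no test between the lists.

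Of the mitosis list, edgeR called 23 of 38 tested genes lower from Spp1 to Neurog3 (median -1.41), where 3.29% of all genes tested were called lower. From Neurog3 to Chgb it called 7 lower and 1 higher (median -0.73), where 5.57% of all genes tested were called lower. Both medians were below 0, as for the 10 genes. The proliferation marker Mki67 changed by -2.56, the cyclin-dependent kinase Cdk1 by -1.66, the chromosomal passenger Birc5 by -1.53 and topoisomerase Top2a by -1.07 at the first step. The mitotic cyclin Ccnb1 did not pass there (-0.91, edgeR adjusted p = 0.108). For the difference between the steps, the mitosis list had a median of 0.70 with 1 gene called, and the 6 Mcm genes a median of -0.82 with 1 gene called, against 0.01 over all genes tested. Of all genes tested, 5.76% were called for this difference in either direction. A single call in lists of 38 and 6 genes is therefore not read as a result about either list. The lists were not tested against each other.

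The genes whose pattern was most like the summed level of the 10 genes were found by Pearson correlation of log2(CPM + 1) over the 12 sums with at least 10 cells, among 9902 genes with a mean of at least 20 CPM. Outside the 10 genes they were Hmgb2 (0.986), Hmgb1 (0.981), Acaa2 (0.962), Lmnb1 (0.956), Hnrnpf (0.955), Dbi (0.951), Ccnb2 (0.944), Ldha (0.943), Smc2 (0.943) and Rcc2 (0.939). The 12 sums share 2 libraries, so this is a description. Of the 10 genes themselves, each part of the sum it was set against, Mcm6 (0.972) and Mcm5 (0.970) followed it most closely and Rrm2 (0.817) least. Hmgb2, an HMG-box chromatin protein, was at 777 and 943 CPM in the Spp1 group, 399 and 251 CPM in the Neurog3 group and 101 and 127 CPM in the Chgb group. Hmgb2, Ccnb2 and Smc2 are also part of the mitosis list.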

How the data were processed

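Per the labels' protocols, cells were encapsulated by inDrop (1CellBio), amplified as in CEL-Seq and sequenced on a NextSeq500. The deposited values are raw UMI counts per gene and cell, aligned to GRCm38 per the submitters' processing notes. For the aligner, the gene annotation and strand handling, the entry is: not given in the sources used here. All columns were used (0 left out).

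Cells needed at least 1000 UMIs, 500 genes and at most 20% mitochondrial UMIs, which 528 and 1081 passed. Scrublet (scanpy 1.11.5) removed 13 (2.46%) and 11 (1.02%) doublets. UMIs were summed per library and marker group, with at least 10 cells a sum. These 12 sums were fitted with the quasi-likelihood method of edgeR 4.0.16 under R 4.3.3, TMM and the default filter on low counts. The fit had 8 coefficients and 4 residual degrees of freedom over 12201 genes. The method also borrows the spread over all genes and groups, so its p-values rest on more than these 4 degrees of freedom. A second fit split by Spp1 and Neurog3 (16 sums, 6 residual degrees of freedom, 10922 genes). Marker genes that define the groups were not tested. Library entered as a block because both groups of each comparison come from the same libraries. The SE is the absolute log2 fold change over the square root of F. Single-library values have no test. Levels are plain CPM, and zeros or low sums have wide counting intervals. The planned comparison of cells with both Neurog3 and Chgb with the Neurog3 group was not made, since both sums were under 10 cells. DESeq2 1.42.0 was the second tool. Shares of all genes called are those of the main edgeR fits. Counts from DESeq2, from unadjusted p-values and from the alternatives have no such share beside them.

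The 10 genes, the groups, the replication and mitosis lists, and the tests were chosen with earlier results of these data known. Named genes are the 10 genes, 3 replication genes per role with the lowest adjusted p from Spp1 to Neurog3, 5 mitosis genes, and the 10 genes most like the sum. The other replication genes named were picked because they passed the test. Of the replication genes that passed from Spp1 to Neurog3, 1 is not reported here by name. Hmgb2 levels were added after the values were seen. Positions come from GENCODE M21 on GRCm38 and sequences from RefSeq (GRCm38.p6).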

Additional observations from a re-analysis of the deposited data

Results flagged for a closer look

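Cells in no marker group entered no comparison, and they carried the 10 genes at 947.1 CPM in library 1 (159 cells) and 884.7 CPM in library 2 (318 cells), above the Chgb group and near the Neurog3 group. They were the shallowest cells, with a median of 2325 and 2393 UMIs. Those with 1 to 4 Neurog3 UMIs held 689 and 909 CPM, and those with 1 to 4 Chgb UMIs and 0 Neurog3 UMIs held 413 and 502 CPM. Those with 1 to 4 Spp1 UMIs and neither other marker held 1213 and 1349 CPM, and those at 0 for all 3 markers held 1462 and 1027 CPM (46 and 138 cells). The order by marker was thus the same below the minimums as above them. These cells also held 300 and 1196 CPM of 4 mesenchyme markers, all detected, against 83.2 and 57.2 CPM in the Spp1 group. The delta cell markers Sst and Hhex stood at 935 and 3386 CPM, against 154 and 252 CPM in the Spp1 group. The ghrelin gene Ghrl stood at 1053 and 1110 CPM, against 17.7 and 21.7 CPM. The 5 endocrine precursor markers other than Chgb summed to 1636 and 2439 CPM, against 164 and 147 CPM.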

How the results depend on the processing

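The following counts of called genes changed by over 1.5 times. Cells without mitosis UMIs are here those with 0 UMIs of Mki67, Top2a, Cdk1, Ccnb1 and Birc5. They can hold UMIs of other genes of the mitosis list. From Neurog3 to Chgb, 7 became 3 with DESeq2, 3 in cells without mitosis UMIs and 4 with a minimum of 5 cells a sum. From Spp1 to Neurog3, 3 became 1 with DESeq2, and from Spp1 to Chgb 10 became 4 in cells without mitosis UMIs. For Cpa1 against Spp1, 1 became 0 with DESeq2 and 0 with no filter on low counts. Neurog3 cells with Spp1 against Spp1 cells with Neurog3 gave 1 in place of 0 with lowered marker minimums and 1 with no filter. Neurog3 cells without against with Spp1 gave 0 in place of 2 with DESeq2, in cells without mitosis UMIs and with minimums on scaled UMIs, and 1 with lowered minimums, a minimum of 5 cells or no filter. The step difference gave 0 in place of 1 in cells without mitosis UMIs, with lowered or doubled minimums, a minimum of 5 cells or no filter. In each of these the cause was not tested.

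Without the replicate block, the calls from Spp1 to Neurog3 were 2 in place of 3, from Neurog3 to Chgb 5 in place of 7, for Neurog3 cells without against with Spp1 1 in place of 2, and for the step difference 0 in place of 1. The other counts did not change without the block.

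These log2 fold changes reversed: Pcna from Neurog3 to Chgb was 0.071 in cells without mitosis UMIs, and from Spp1 to Neurog3 Mcm3 was 0.45 and Rrm1 0.15 in those cells. With 1 library left out, Mcm3 ran from -1.25 (without replicate 1) to 0.51 (without replicate 2). Leaving out a library left no residual degrees of freedom, so no count of calls was possible there.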
